A study of Mus musculus with 4 samples.

Results

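The genes described here are 35 enzymes and regulators of cholesterol and fatty acid synthesis, listed by name for their known function. No measured value entered the rule, though the list was chosen with earlier results of these data known. They are 35 of the 55450 genes of the gene tables. All were found by symbol, and all passed the filter on low counts. The RNA came from bone-marrow-derived macrophages of C57BL/6J mice, primary cells grown out of bone marrow. Per the labels, the cells received 100 ng/ml lipid A, the Toll-like receptor 4 agonist of bacterial endotoxin, for 12 h, were then kept without it for 12 h and were taken at 0 min of a second stimulation. The agent is called lipoprotein A in other fields of the labels. The 4 polyA-selected libraries form 1 group, biological replicates 1 to 4, without untreated cells, so an effect of the lipid A cannot be measured. Age and sex were recorded as not collected, and the replicates carry 1 donor identifier on separate biosamples, so p-values over libraries measure only the spread between these samples.

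Cells build cholesterol from acetyl-CoA through mevalonate, isoprenoids and squalene. They build saturated fatty acids from the same acetyl-CoA, which elongases lengthen and desaturases give double bonds. When membranes of the endoplasmic reticulum run low in sterol, the escort protein SCAP carries the SREBP factors to the Golgi, where they are cut and released to switch on these genes; when sterol is ample, INSIG proteins hold the complex back. In macrophages, Toll-like receptor signalling is known to change this programme, and its products, from oxysterols to polyunsaturated phospholipids, feed back on inflammatory and antiviral responses.

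Expected counts totalled 25591162 and 27377973 in the libraries of replicates 1 and 2, and 48866046 and 57119610 in the remaining pair. The deposited notes list 6 read files for each of the first pair and 4 for each of the second, and mitochondrial genes took 0.778 to 1.16% of counts in the first pair and 3.00 to 3.34% in the second. All 8 macrophage markers examined reached a mean of at least 100 TPM (the share of transcripts in a library, scaled for gene length), and their sum was 14800 to 17500 TPM. Of the markers of adipocytes, which express many of the same synthesis genes, Adipoq, Plin1, Lep and Cfd were at 0 in every library, and the 5 together reached at most 0.05 TPM. The other marker sums were 6.77 to 12.3 TPM for neutrophils and precursors, with Ly6g and Retnlg at 0 and Mmp8 leading, 3.50 to 7.49 TPM for endothelium, led by Pecam1, 0.63 to 1.16 TPM for dendritic cells, and at most 1.5 TPM for T and NK cells, 0.77 TPM for fibroblasts and stroma, 0.18 TPM for B cells and 0.16 TPM for erythroid cells. In bulk RNA, fewer cells of a type and less RNA per cell cannot be told apart.

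Sequence bears on 2 features of these genes: the first exon that decides which SREBP-1 protein is made, and the short promoter boxes that SREBP works with. Srebf1 lies on the minus strand of chromosome 11 (chr11:60199089-60222581, mm10) and begins its protein in one of 2 first exons, whose transcripts start 10139 bases apart. Srebf1-201 opens with the first exon of SREBP-1a, the form with a long activation domain, and Srebf1-207 with that of SREBP-1c, which has a short one. Below, capitals mark the coding bases of that exon, 91 in the first and 19 in the second, and the 30 bases in lower case are the shared exon that follows, as read from the GENCODE M21 transcripts.
Srebf1-201: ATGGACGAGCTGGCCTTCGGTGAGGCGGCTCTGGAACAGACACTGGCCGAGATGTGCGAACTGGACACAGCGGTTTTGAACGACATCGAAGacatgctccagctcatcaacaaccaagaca
Srebf1-207: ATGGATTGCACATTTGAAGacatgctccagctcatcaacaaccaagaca

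Each start has a window of its own in the RefSeq promoter table (build GRCm38.p6), which gives 250 bases before a start and 50 after it. The 250 bases before the start are printed 5′ to 3′ on the strand of the gene, and capitals mark the NF-Y box (CCAAT, or ATTGG on the opposite strand) and the looser sterol regulatory element TCACNCCAC. The window before the SREBP-1a exon holds neither, and the one before the SREBP-1c exon holds 1 NF-Y box close to the start. A further Srebf1 window lies upstream of both (chr11:60222582-60222831, minus strand) and is not printed. It holds 1 NF-Y box, whose first base lies 166 bases upstream of its start.
Srebf1, before the SREBP-1a exon (chr11:60220628-60220877, minus strand): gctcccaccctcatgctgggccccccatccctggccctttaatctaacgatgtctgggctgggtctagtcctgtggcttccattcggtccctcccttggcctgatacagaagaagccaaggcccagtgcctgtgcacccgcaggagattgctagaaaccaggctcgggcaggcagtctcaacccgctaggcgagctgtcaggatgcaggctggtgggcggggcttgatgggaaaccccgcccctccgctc
Srebf1, before the SREBP-1c exon (chr11:60210472-60210721, minus strand): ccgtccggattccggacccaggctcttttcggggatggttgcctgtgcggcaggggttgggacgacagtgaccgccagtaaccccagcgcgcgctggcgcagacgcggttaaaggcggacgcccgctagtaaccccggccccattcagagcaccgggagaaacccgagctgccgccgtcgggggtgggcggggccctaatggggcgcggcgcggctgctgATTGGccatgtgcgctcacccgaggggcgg

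Among the enzymes, the windows of Mvk and Hmgcs1 are shown because the first holds the most NF-Y boxes of those printed and the second is the member window with the looser sterol element. Mvk, mevalonate kinase, has 5 NF-Y boxes. Hmgcs1, HMG-CoA synthase, an early enzyme of the mevalonate pathway, has 3 NF-Y boxes in the bases printed, a further 1 after the start, and TCACCCCAC, whose first base lies 137 bases upstream of the start.
Mvk (chr5:114444019-114444268, plus strand): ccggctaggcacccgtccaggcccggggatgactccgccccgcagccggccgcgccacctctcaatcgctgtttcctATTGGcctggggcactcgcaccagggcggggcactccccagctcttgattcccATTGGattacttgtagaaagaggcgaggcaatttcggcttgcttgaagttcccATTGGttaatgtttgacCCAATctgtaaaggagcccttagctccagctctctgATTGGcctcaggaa
Hmgcs1 (chr13:119690101-119690350, plus strand): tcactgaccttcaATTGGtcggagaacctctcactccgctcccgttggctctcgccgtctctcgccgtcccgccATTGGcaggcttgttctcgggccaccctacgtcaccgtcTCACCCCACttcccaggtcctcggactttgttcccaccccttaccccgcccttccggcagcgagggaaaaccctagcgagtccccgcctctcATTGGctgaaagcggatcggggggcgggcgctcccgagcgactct

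Of the 35 genes, 28 had a promoter window (37 windows in all); Fads1, Fdft1, Fdps, Scd1, Scd2, Sqle and Stard4 had none. The NF-Y box lay in a window of 23 of the 28 (82.1%), against 41.1% of all 27025 genes in the table and 43.2% of those that passed the count filter here. The Sp1 box GGGCGG was as frequent among the members, 23 of 28 (82.1%), against 38.2% of all genes and 67.6% of those that passed the filter. The palindromic E-box CACGTG lay in windows of 6 genes (21.4%), Dhcr7, Elovl5, Hsd17b7, Insig1, Sc5d and Scap, against 8.09% and 11.9%. The looser sterol element was found in Hmgcs1 alone (3.57% of members) and in 1.44% of all genes, while the strict sterol regulatory element and the LXR direct repeat were in no member window and in 0.0999% and 0.0148% of all genes. Motifs were searched on both strands over all 300 bases, and a match is a description of letters, not of binding.

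The programme was transcribed throughout. All 35 genes averaged 1 TPM or more and had 10 or more counts in every library, and 26 averaged 10 TPM or more. The members' median of mean TPM was 18.1, beside 15.3 over the 11425 genes with a mean of at least 1 TPM. Elovl1 and Scd2 stood above 100 TPM, and Elovl6 and Scd1 were the lowest, the only members under 1 TPM in any library. By role, the median was 50 TPM for the 4 desaturases, 41.9 for the 3 elongases, 40.4 for the acyltransferase Lpcat3, 21.2 for the regulators with the sterol carrier Stard4, 19.8 from squalene to cholesterol, 16.7 from acetyl units to isoprenoids and 9.70 for acetyl-CoA supply and fatty acid synthesis.

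**Figure D1:**
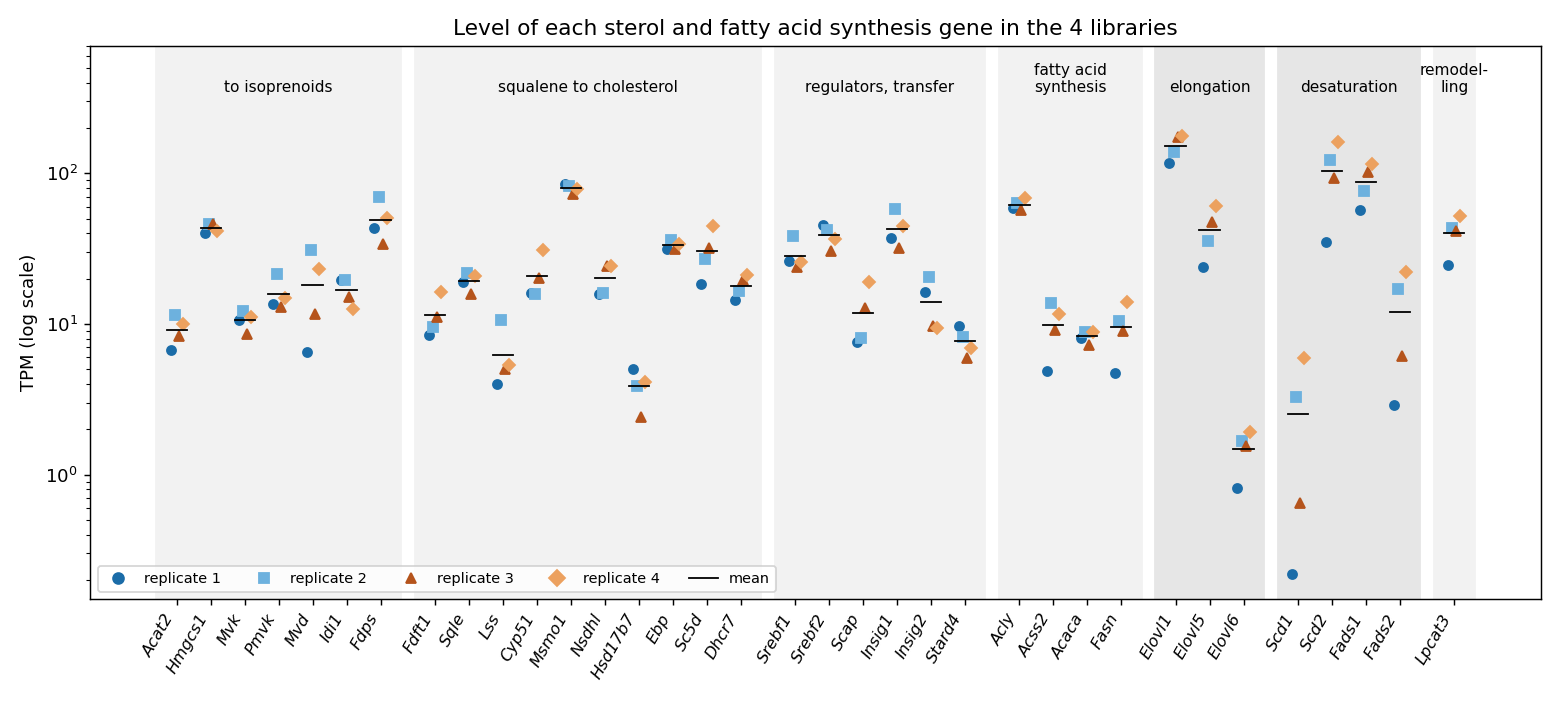
TPM of each of the 35 genes on a log scale, in the order of the pathway; each marker is 1 library and the black line the mean of the 4. Most genes sit between 5 and 100 TPM with the 4 libraries close together, while Scd1, Fads2, Scd2 and Mvd spread widely, with replicate 1 lowest in each.

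In the upper mevalonate branch, Fdps and Hmgcs1 were the most abundant. Fdps, which makes farnesyl diphosphate for sterols and protein prenylation, had 43.4, 69.2, 33.9 and 50.3 TPM in replicates 1 to 4. Hmgcs1 had 40.1, 45.9, 46.4 and 41.1 TPM. On CPM (counts scaled to library size, normalised by TMM), Hmgcs1 differed by at most 1.15-fold between libraries, one of the smallest spreads of the set.

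Mvd, the decarboxylase that yields isopentenyl diphosphate, varied most in this branch: 6.52, 31.0, 11.7 and 23.2 TPM. Replicates 2 and 4 were high and replicates 1 and 3 low. Acat2, the cytosolic thiolase that joins 2 acetyl-CoA, had 6.70, 11.5, 8.34 and 10 TPM, again lowest in replicate 1. Mvk, Pmvk, the kinase after it, and the isomerase Idi1 had means of 10.6, 15.7 and 16.7 TPM, and none of the 3 differed by more than 1.68-fold in normalised CPM between any libraries.

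Past squalene, Msmo1, the sterol C4-methyl oxidase, stood highest, with 84.8, 81.9, 72.9 and 78.9 TPM. Ebp, the sterol isomerase, had 31.6, 36.0, 31.6 and 34.1 TPM, and its normalised CPM differed by no more than 1.10-fold. Both were nearly level across the libraries in TPM, though Msmo1 differed by 1.34-fold in normalised CPM. Coding transcripts of Msmo1 alone had 68.2, 61.6, 46.6 and 51.6 TPM. Sc5d, which introduces a double bond into the sterol ring, had 18.5, 26.9, 31.7 and 44.7 TPM, lower in both of replicates 1 and 2 than in replicates 3 and 4.

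The enzymes that commit farnesyl units to sterol were lower. Fdft1, squalene synthase, had 8.48, 9.49, 11.2 and 16.3 TPM; its exons overlap those of Ctsb on the opposite strand, a cathepsin gene at a mean of 7070 TPM, and whether the counting used strand is not given in the sources used here. Exons of Cyp51, Acss2 and Lpcat3 likewise overlap those of Akap9, Gss and Emg1, at means of 9.42, 9.97 and 33.4 TPM. Sqle, squalene epoxidase, a rate-limiting step, had 19.1, 21.8, 15.7 and 20.9 TPM. Lss, which closes the ring to lanosterol, had 4.02, 10.7, 4.99 and 5.32 TPM, with replicate 2 above the other 3. The remaining enzymes of the branch, Cyp51, Nsdhl, Dhcr7 and Hsd17b7, had means of 20.8, 20.1, 17.9 and 3.86 TPM, the last the lowest of the sterol enzymes.

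All 5 genes of the sterol sensor were expressed. Srebf2, whose product chiefly drives cholesterol synthesis, had 45.6, 42.3, 30.7 and 36.8 TPM. Srebf1, whose products drive fatty acid genes more, had 26.1, 38.1, 23.7 and 25.7 TPM, with replicate 2 apart from the others. Srebf2 exceeded Srebf1 in each library in these gene totals, by a mean log2 ratio of 0.45 ± 0.27 (SD, n = 4). In coding transcripts alone, Srebf1 was higher in replicate 2, at 35.3 against 33.1 TPM, and lower in the others.

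Insig1, itself a target of SREBP that closes the feedback loop, had 37.1, 58.1, 32.0 and 44.7 TPM. Insig2, which in many tissues does not depend on SREBP, had 16.2, 20.6, 9.68 and 9.39 TPM. The log2 ratio of Insig1 over Insig2 was 1.14, 1.45, 1.63 and 2.14. Scap had 7.57, 8.10, 12.8 and 19.0 TPM; part of this difference lay in a short retained-intron transcript described further on. Stard4, which moves cholesterol between membranes, had a mean of 7.66 TPM.

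Acetyl-CoA for both branches comes from citrate through Acly and from acetate through Acss2. Acly had 58.6, 63.5, 57.0 and 68.6 TPM, close together. Acss2 had 4.85, 13.8, 9.15 and 11.7 TPM, lowest in replicate 1. Acly exceeded Acss2 in every library, with a mean log2 ratio of 2.61 ± 0.52 (SD, n = 4). Acaca, which makes malonyl-CoA, had 8.11, 8.88, 7.26 and 8.89 TPM, and Fasn, the synthase that makes palmitate, had 4.74, 10.4, 8.98 and 14.0 TPM. Their log2 ratio was 0.67, -0.20, -0.27 and -0.60, so in these gene totals Acaca stood above Fasn in replicate 1 alone. Coding transcripts alone gave another order, with Acaca above Fasn in every library. On that scale Acaca had 8.12, 8.86, 7.2 and 8.87 TPM and Fasn 3.17, 6.04, 3.07 and 3.92 TPM.

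The elongases and desaturases covered the whole range of the set. Elovl1, which lengthens very long saturated chains, had 117, 138, 173 and 177 TPM. Elovl5, which lengthens polyunsaturated chains, had 24.0, 35.5, 47.8 and 60.5 TPM. Elovl6, which takes palmitate to stearate, had 0.82, 1.68, 1.56 and 1.91 TPM. The mean log2 ratio over Elovl6 was 5.93 ± 0.17 for Elovl1 and 4.05 ± 0.32 for Elovl5 (SD, n = 4).

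Of the stearoyl-CoA desaturases, which make oleate, Scd2 was far above Scd1 in these cells. Scd2 had 35, 123, 93.4 and 162 TPM. Scd1 had 0.22, 3.30, 0.65 and 5.93 TPM, from 17, 280, 103 and 954 counts. The log2 ratio of Scd2 over Scd1 was 5.03 ± 0.56 (SD, n = 4). Fads1 and Fads2, the delta-5 and delta-6 desaturases of the arachidonate route, also stood apart: Fads1 had 57.2, 76.8, 102 and 116 TPM, and Fads2 had 2.88, 17.0, 6.14 and 22.0 TPM. Their log2 ratio was 3.91, 2.11, 3.84 and 2.35, smaller where Fads2 was high. Lpcat3, which places arachidonate into phospholipids, had 24.6, 43.3, 41.5 and 52.1 TPM, lowest in replicate 1.

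In all, 11 gene pairs were compared within libraries on log2((TPM a + 1)/(TPM b + 1)), and 10 kept 1 sign in all 4 libraries. Besides those given, Hmgcs1 exceeded Acat2 by 2.15 ± 0.27, Sqle exceeded Lss by 1.56 ± 0.45, and Fdft1 over Fdps was -2.01 ± 0.58 (SD, n = 4). For each of the 10 the exact two-sided sign-flip permutation test gave p = 0.13, the smallest that 4 libraries allow, and 0.138 after Benjamini-Hochberg adjustment over the 11 pairs. Acaca over Fasn, at -0.10 ± 0.54 (SD, n = 4), had an exact permutation p of 0.75. No pair could have passed a threshold of 0.05 in this design. The values above are in the layout of RSEM. In the second deposited quantification, in the layout of kallisto, the mean log2 ratio of Srebf2 over Srebf1 was 0.02. There Srebf1 was above Srebf2 in replicate 2 (39.8 against 31.1 TPM) and replicate 3 (30.7 against 30.4 TPM). Acaca was there above Fasn in replicates 1 to 3, at 6.39, 7.64 and 7.43 against 2.63, 6.52 and 6.56 TPM. In replicate 4 it was below (9.12 against 10.4 TPM).

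The 4 libraries did not differ evenly. Within the pair with 6 read files, 8 of the 35 genes were at least 1.5-fold higher in normalised CPM in replicate 2 than in replicate 1, namely Mvd, Lss, Acss2, Fasn, Elovl6, Scd1, Scd2 and Fads2 (22.9%, beside 15.1% of the 13253 genes tested). Within the other pair, Mvd, Cyp51, Scd1, Scd2 and Fads2 were at least 1.5-fold higher in replicate 4 than in replicate 3 (14.3%, beside 7.46%). Mvd, Scd1, Scd2 and Fads2 were so in both pairs (11.4%, beside 3.75% of all genes). No member was 1.5-fold lower in both, beside 2.8% of all genes, a share that 35 genes cannot tell from 0. This look at the pairs, and the direction in which each was read, was chosen after the values were seen, and no test is given.

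The sizes were largest for Scd1 and Fads2. Scd1 was 12.6-fold higher in replicate 2 over 1 and 7.79-fold higher in replicate 4 over 3. Fads2 was 4.90-fold and 3.52-fold higher, Mvd 3.94-fold and 1.95-fold, and Scd2 2.92-fold and 1.70-fold. Fads1, the neighbour of Fads2, had 1.10 and 1.14 on the same scale. At 2-fold in both pairs only Scd1 and Fads2 remained, a cutoff also chosen afterwards. Among the 1000 tested genes nearest in abundance, the spread (SD of log2 CPM over the 4 libraries) of Fads2, Scd1, Scd2, Mvd and Elovl5 lay above that of 90% of them, at percentiles of 99.6, 99.4, 97.7, 97.7 and 92.0.

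**Figure D2:**
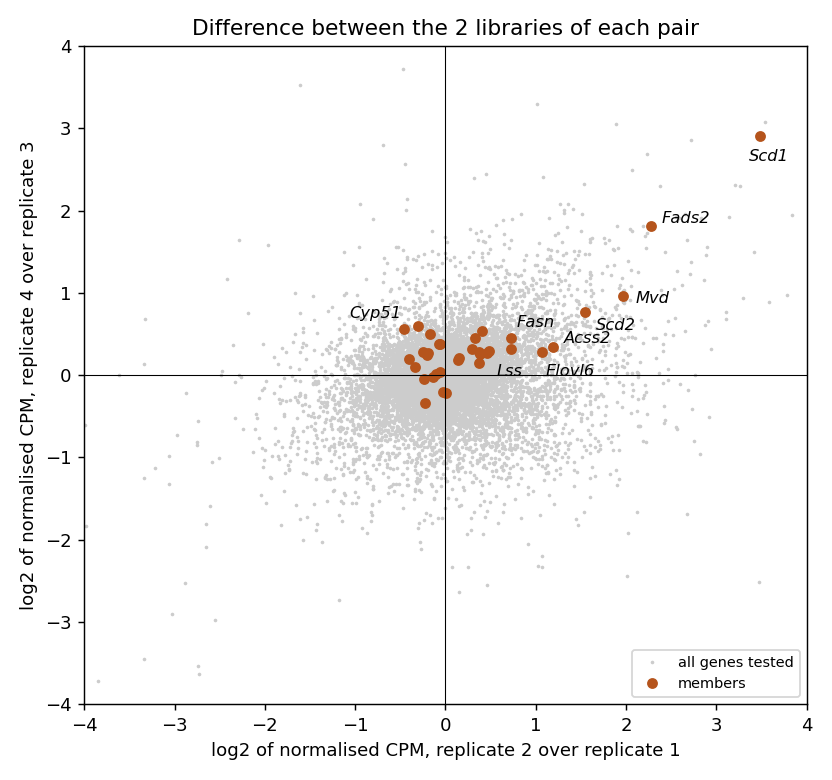
Log2 ratio of normalised CPM of replicate 2 over 1 (horizontal) and of replicate 4 over 3 (vertical), for all 13253 genes tested (grey) and the 35 members (orange); genes beyond the axes are not drawn. Scd1, Fads2, Mvd and Scd2 lie far out in the upper right quadrant, and 18 of the 35 members lie in that quadrant.

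Of the 35 members, 18 were higher in both replicate 2 over 1 and replicate 4 over 3 (51.4%, beside 26.8% of all genes tested). Across the 35 genes the log2 ratios of the pairs, which share no library, had Pearson r = 0.833 and Spearman rho = 0.446. Without Scd1, r was 0.696 and rho 0.396. Over all genes tested r was 0.243 and rho 0.188. These are correlations across genes, which are not independent replicates. Replicate 1 was the lowest library for 14 members (of all genes tested, 26.1%), replicate 4 the highest for 14 (24.1%) and replicate 2 the highest for 11 (24.5%). Expected counts were higher in replicate 2 than 1 and in replicate 4 than 3, and whether depth had a part in these ratios was not tested.

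Scd1, Scd2, Fads1 and Fads2 all lie on chromosome 19, as 2 pairs of neighbours. Scd2 (chr19:44293674-44306864, plus strand) and Scd1 (chr19:44394455-44407879, minus strand) are 87.6 kb apart. Fads2 (chr19:10062765-10101746, minus strand) and Fads1 (chr19:10182888-10196877, plus strand) are 81.1 kb apart. In each pair of neighbours the gene with the lower level was the one with the wider spread.

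Replicates 3 and 4 were also compared with replicates 1 and 2, since the deposited notes give them different numbers of read files; what that number reflects is not known. This is a comparison of libraries, not of conditions, and depth and the mitochondrial share differ between the same pairs. No member passed edgeR's quasi-likelihood test at a Benjamini-Hochberg adjusted p below 0.05 (0 of 35), beside 5.48% of the 13253 genes tested (1.88% higher and 3.6% lower). At an unadjusted p below 0.05 there were 9 of 35 (25.7%), beside 27.4% of all genes, a share near the background. DESeq2 called 4 members, Elovl5, Fads1, Nsdhl and Srebf1, where it called 14.2% of the 13035 genes with an adjusted p. Without the filter on low counts, edgeR called 10, the same 4 with Cyp51, Fads2, Fdft1, Lpcat3, Scd1 and Scd2, beside 11.7% of the 21987 genes then tested; calls over all genes numbered 1210 higher and 1354 lower.

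The members nearest the threshold came from different roles. Elovl5 was higher in replicates 3 and 4, at 84.1 and 105 against 45.7 and 56.0 normalised CPM, a log2 difference of 0.89 ± 0.19 (SE; edgeR adjusted p = 0.0538). Fads1 was at 220 and 250 against 137 and 151 CPM, 0.70 ± 0.18 (SE; edgeR adjusted p = 0.0721). Nsdhl, a sterol dehydrogenase on the X chromosome, was at 32.5 and 31.4 against 22.6 and 19.2 CPM, 0.61 ± 0.16 (SE; edgeR adjusted p = 0.0807). In each of the 3 genes the pairs did not overlap, which held in either direction for 58.1% of all genes tested.

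Srebf1 went the other way, at 40.7 and 45.2 against 65.0 and 83.9 CPM, a log2 difference of -0.79 ± 0.18 (SE; edgeR adjusted p = 0.063). Srebf2 was at 78.4 and 89.5 against 142 and 107 CPM, -0.57 ± 0.20 (SE; edgeR adjusted p = 0.136). Neither overlapped. Of the 6 genes of regulation and sterol transfer, 5 had a negative difference, with a median of -0.39 and Scap the exception at 0.27, while all 4 desaturases (median 0.74) and all 3 elongases (median 0.35) had positive ones, as did 49.0% of all genes tested. Leaving out 1 library turned the sign for Scd1 (-1.29 to 3.61), Fads2 (-0.58 to 2.16) and Elovl6 (-0.14 to 0.94). Over the 35 members, 20 differences were positive and 15 negative, with a median of 0.09 beside -0.02 over all genes tested.

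Normalised CPM was higher in both of replicates 3 and 4 than in both others for 12 of 35 members and lower for 7, where the background is 28.5% and 29.6% of all genes, a total of 19 members beside 58.1% of all genes. Scd1 (0.83 ± 1.20), Fads2 (0.59 ± 0.81) and Mvd (-0.02 ± 0.63; log2 difference ± SE) had the widest errors, and Scd1, Fads2 and Mvd also differed within both pairs. Scd2, at 0.77 ± 0.52 (SE; edgeR adjusted p = 0.39), was called without replicate 2, with a log2 difference of 1.74 and an edgeR adjusted p of 0.0496; replicate 1 was then alone in its arm and was taken to vary like the other pair, and over all alternatives the adjusted p ran from 0.014 to 0.805. Fasn was lower by counts (-0.16) and higher on the log2(TPM + 1) scale (0.60), and Scap was 0.27 and 0.91 on those scales. Acaca was 0.35 by counts and -0.07 on the log2(TPM + 1) scale, and Insig2 was -0.47 and -0.87.

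**Figure D3:**
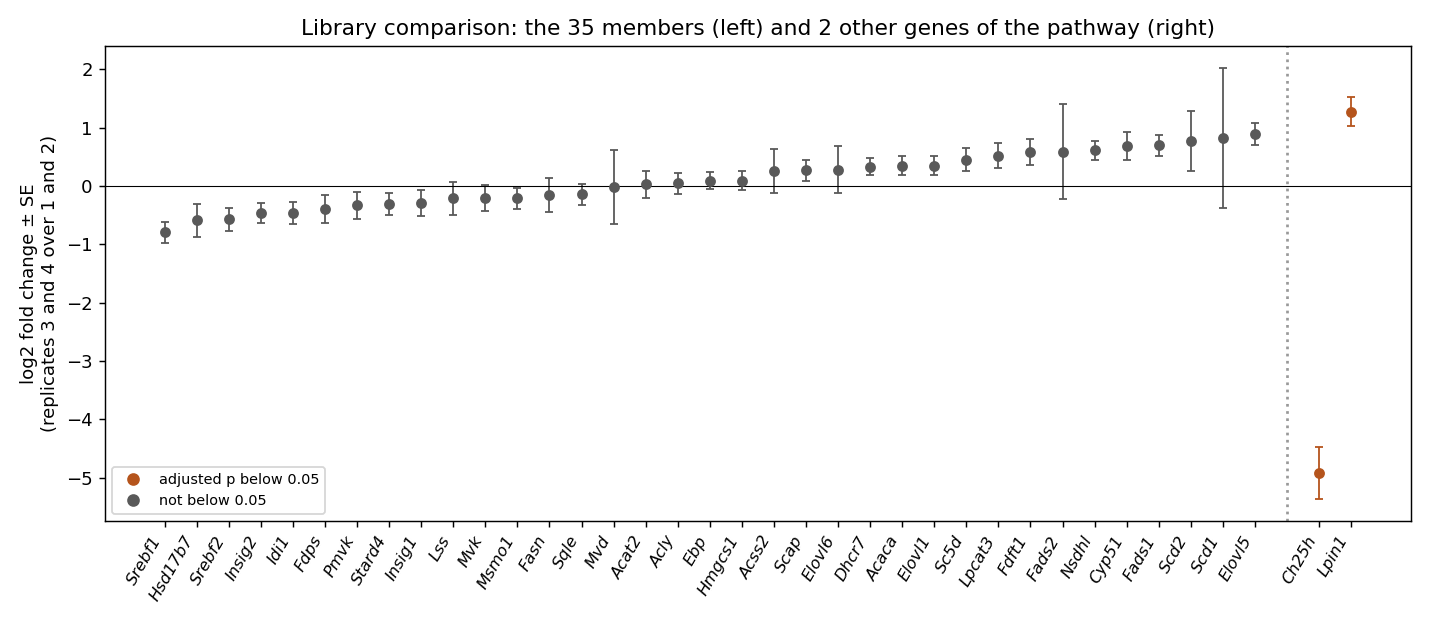
Log2 fold change ± SE of replicates 3 and 4 over replicates 1 and 2 for the 35 members in order of size (left of the dotted line) and for Ch25h and Lpin1 (right). All members lie between -0.79 and 0.89 and none has an adjusted p below 0.05, while Ch25h lies at -4.92 and Lpin1 at 1.27.

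A list of 51 further genes of sterol and lipid handling was read beside the members; 45 passed the count filter, of which 1 was called higher, 1 was called lower (beside 1.88% and 3.6% of all genes tested) and 11 had an unadjusted p below 0.05 (24.4%, beside 27.4%). These shares are near or below the background. Ch25h, which makes the oxysterol 25-hydroxycholesterol, an inhibitor of SREBP processing, had 13.9, 10, 0.28 and 0.51 TPM. It fell by 4.92 ± 0.45 on the log2 scale in replicates 3 and 4 (SE; edgeR adjusted p = 0.0137). Lpin1, a phosphatidate phosphatase of glyceride synthesis, had 1.28, 2.14, 3.53 and 4.81 TPM and rose by 1.27 ± 0.25 (SE; edgeR adjusted p = 0.0479). The call of Lpin1 was lost in 6 alternatives.

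The most abundant of the 51 carry or store lipid. Apoe, an apolipoprotein of cholesterol export, had 6280, 3500, 11200 and 5010 TPM. Npc2, which takes cholesterol out of lysosomes, had 1060, 987, 756 and 756 TPM, and Plin2, a coat protein of lipid droplets, 996, 533, 669 and 460 TPM. Pltp, a phospholipid transfer protein, had 421, 252, 381 and 193 TPM, and Soat1, which esterifies cholesterol, 255, 264, 213 and 333 TPM. None of the 5 was called. Mlxipl, Scd3 and Elovl4 were at 0 in all 4 libraries in the first quantification, where 0 counts allow at most 0.117, 0.110, 0.0614 and 0.0525 CPM in replicates 1 to 4, counting error only. In the second quantification Elovl4 was at 0 as well, while Mlxipl had 0.0508 to 0.167 TPM and Scd3 0.0226 to 0.0953 TPM.

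Gene totals hide which transcripts were counted. By the mean share over the 4 libraries, 1 transcript held more than 50% of the gene's TPM in 31 of the 35 genes and more than 90% in 14. Mvk, Srebf1, Acly and Fasn had no transcript with a mean share above 50%. Noncoding transcripts had a mean share above 10% in Lss, Msmo1, Hsd17b7, Ebp, Srebf1, Srebf2, Scap and Fasn. The gene's mean TPM in the second quantification was 0.686 to 1.15 times that in the first, so no member's mean differed 2-fold; in single libraries the gap was wider, as for Scd1 in replicate 1 (0.441 against 0.22 TPM).

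For Srebf1, the SREBP-1a transcript whose first exon is printed above, Srebf1-201, held 61.2, 59.1, 36.6 and 41.5% of the gene's TPM in replicates 1 to 4. Srebf1-207, the SREBP-1c transcript, held 21.3, 20.6, 22.3 and 20.7%. The third coding transcript, Srebf1-203, held 4.88, 13.1, 4.89 and 4.36%. A short noncoding transcript of 662 bases, Srebf1-210, held 0, 0, 31.9 and 28.6% in the first quantification and 11.9, 10.5, 36.1 and 34.5% in the second. The SREBP-1a transcript exceeded the SREBP-1c transcript in every library. In the second quantification their mean shares were 33.0 and 21.5%. The shares are of whole transcripts, 4299 and 3177 bases long, so they do not measure use of the first exons alone. The start of Srebf1-203 is not given here. Srebf1 exons also overlap those of Rai1 on the opposite strand, at a mean of 6.04 TPM.

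**Figure D4:**
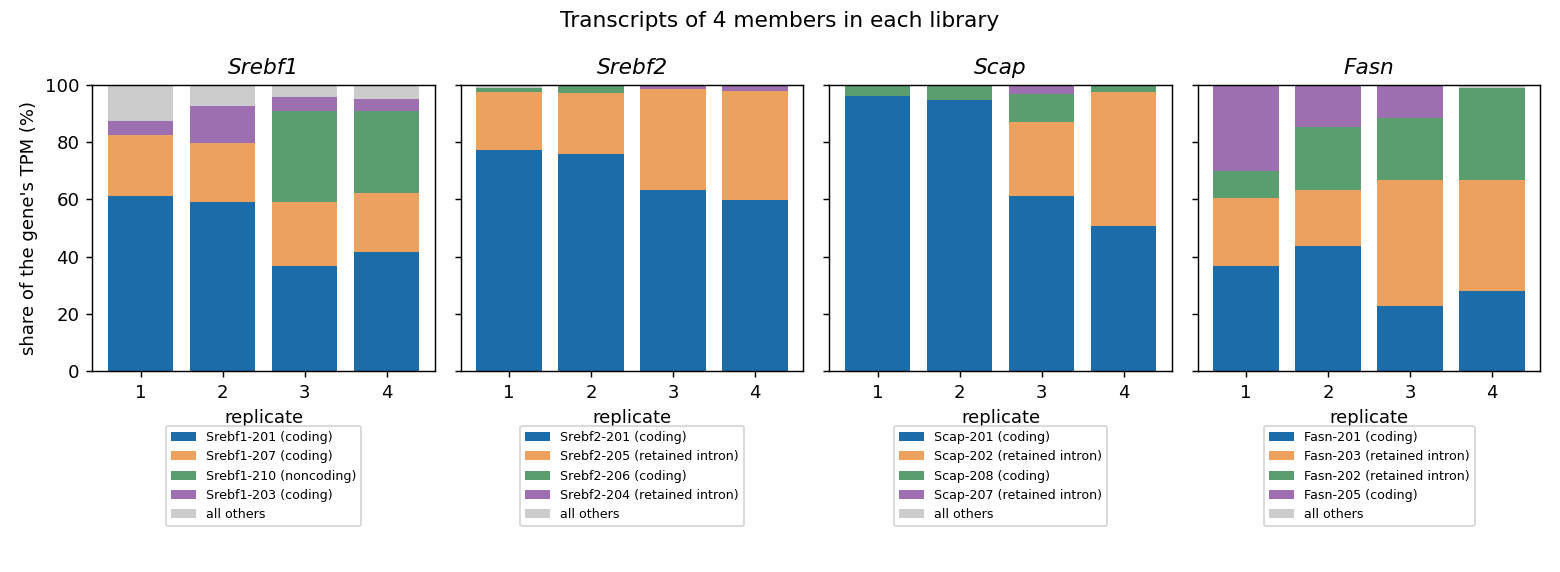
Share of each gene's TPM (%) held by its 4 leading transcripts and by all others, for Srebf1, Srebf2, Scap and Fasn in replicates 1 to 4. Noncoding or retained-intron transcripts take a larger share in replicates 3 and 4 than in 1 and 2 in each of the 4 genes in this quantification (the first); in the second the pairs overlap for Scap.

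Srebf2 differed between the pairs in a like way. Srebf2-205, a retained-intron transcript, held 20.3, 21.3, 35.3 and 37.9% of the gene in the first quantification and 20.6, 21.4, 34.0 and 36.8% in the second. For Scap the quantifications differed: Scap-202, a retained-intron fragment of 358 bases, held 0, 0, 25.8 and 46.9% in the first and 36.5, 0, 23.7 and 45.7% in the second, where the pairs overlap. Counting coding transcripts of the first quantification alone, Scap had 7.57, 8.10, 9.09 and 10.1 TPM, a narrower range than the gene total. Srebf2 on that scale had 36.1, 33.1, 19.4 and 22.0 TPM, and Srebf1 22.7, 35.3, 15.1 and 17.1 TPM. Library depth and the mitochondrial share differ between the same pairs, and their part in these shares was not tested.

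Fasn was the extreme of the set: its retained-intron transcripts held 33.1, 41.6, 65.8 and 72.0% of the gene's TPM, led by Fasn-203 and Fasn-202. Coding Fasn transcripts alone had 3.17, 6.04, 3.07 and 3.92 TPM, so on that scale replicate 2 was the highest and replicate 4 was not. The share depended on the quantification, with a mean of 53.2% in the first and 30.9% in the second. Coding transcript Fasn-205 had 14.1% in the first and 53.4% in the second. Hmgcs1 showed the only other gap of at least 25 points, with Hmgcs1-201 at 54.8 and 84.6% and Hmgcs1-202 at 42.4 and 12.1%.

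Coding transcripts of other genes also differed in share between the pairs of libraries. Fads1-202 held 1.5, 0, 39.8 and 34.9% of Fads1, though in the second quantification the pairs differed by 13.3 points and not 36.6. Insig2-201 held 61.6, 61.6, 100 and 89.1% of Insig2, and Elovl1-207 57.8, 57.0, 88.1 and 84.1% of Elovl1. In all, 22 transcripts of the members differed by at least 15 points between the pairs of libraries. No test was run on shares.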

How the data were processed

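PolyA-selected RNA was measured in 4 libraries of 1 group. The deposited expected counts and TPM are in the column layout of RSEM, made by the authors from reads aligned to transcripts, and the deposited estimated counts and TPM of the second transcript table are in the layout of kallisto, made from the read files. Per the deposited notes both rest on mm10 and GENCODE M21; programs, versions and strandedness: not given in the sources used here. TPM are scaled within each library, and expected counts carry no normalization, per the file headers.

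Genes were the 55450 with a symbol; 26431 other rows (spike-ins, tRNA and the like) held 0.0545 to 0.147% of counts and were left out. Members and lists were chosen with earlier results of these data known. Rounded expected counts were tested by quasi-likelihood in edgeR 4.0.16 (R 4.3.3) after TMM scaling; filterByExpr used a minimum count of 10 in the pairs of libraries, and the threshold was 0.05 after Benjamini-Hochberg adjustment over all genes tested. The SE is the absolute log2 fold change over the square root of F. Normalised CPM use TMM. On simulated counts of this comparison over 13253 genes, 58% of 100 genes changed by 1 on the log2 scale and 98% of 100 changed by 2 were recovered, with 11 false calls. The changed genes were drawn from those with a mean count above 100, and each gene's spread was set to the trend for its abundance. The recovered shares therefore do not cover genes of wider spread, such as Scd1, Fads2, Scd2 and Mvd. DESeq2 1.42.0, limma 3.58.1 on log2(TPM + 1), other scalings, no filter, offsets for GC and length by loess, the second quantification, a pseudocount of 0.1 TPM and leaving out each replicate were alternatives. Tables and plots used pandas 2.3.3 and numpy 2.4.6 under Python 3.11.15, with scipy 1.17.1 for correlations and matplotlib 3.10.9 for drawing. A count of 0 allows 3 counts.

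Values in every library are given for the 3 members of highest mean TPM in each role (2 where a role has 4 or fewer), members of gene pairs, the 5 sensor genes, called members and members differing 2-fold between quantifications, and for the 5 most abundant and the called genes of the further list. Genes named outside this rule were chosen after their values were seen. Some genes of the further list are not reported here. Protein sequences were not used here.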

Additional observations from a re-analysis of the deposited data

Results flagged for a closer look

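Of 53 sets of 4 library values checked for a library far from the rest, 1 stood out, and chance alone flags about 1 in 20 such groups. Srebf1 had 38.1 TPM in replicate 2, where the nearest other library had 26.1 TPM, a gap of 0.839 of the whole range. In coding transcripts alone replicate 2 was also the highest, at 35.3 TPM.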

How the results depend on the processing

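Precision is limited by 4 libraries of 1 donor identifier and, in replicates 1 and 2, by lower depth. No paired analysis was possible because the series has 1 group. The number of members with a mean of at least 10 TPM was 23 to 28 when a replicate was left out, and the median of the members' mean TPM 17.3 to 19.5. Of 210 alternative mean levels 11 moved by more than the spread between libraries, 4 with the second quantification and 7 with scaling to protein-coding nuclear genes. Of 66 alternative gene pair ratios 60 kept their value within the spread. With a pseudocount of 0.1 TPM, Scd2 over Scd1 was 5.92, Elovl5 over Elovl6 4.70 and Elovl1 over Elovl6 6.61. With the second quantification, Srebf2 over Srebf1 was 0.02 and Acaca over Fasn turned to 0.30; with a replicate left out the latter ranged from -0.36 without replicate 1 to 0.06 without replicate 4. The cause was not tested. Members called in the library comparison numbered 4 with DESeq2, 10 without the count filter and 0 to 1 without a replicate (Scd2, without replicate 2), and 0 with limma, other scalings, GC and length offsets or the second quantification. Genes called higher and lower, over all genes, numbered 1210 and 1354 without the filter, 836 and 1010 with DESeq2, 403 and 476 with limma, and 242 and 282 with GC and length offsets. Leaving out a replicate, they ranged from 13 to 182 and from 35 to 520, lowest without replicate 4, where fewer libraries were tested. Lpin1 lost its call with upper-quartile scaling (adjusted p = 0.0567), limma (0.0992), the offsets (0.0513) and without replicate 1, 3 or 4 (0.0864, 0.12 and 0.189). Of the 35 members, 28 kept the sign of their difference in every alternative fit of all 4 libraries, and 21 also when a replicate was left out. The count of members 1.5-fold higher in both pairs, 4, was 2 at 2-fold. Main transcript shares of 17 of 35 members moved with the second quantification.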
